A study of Mus musculus with 6 samples.

Results

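The genes described here are the tubulins, the building blocks of microtubules, and the proteins that bind, sort or bundle microtubules and filaments in neurons. They were matched by symbol in the array's probe annotation: the alpha, beta and gamma tubulins, the stathmins, the Dpysl and doublecortin-like kinase genes, the neurofilament subunits, and Map1a, Map1b, Map1s, Map2, Map4, Map6, Map7, Mapt, Dcx, Gap43 and Ina. The match used no signal values, but the set was chosen with earlier results of these data known. The rule found 43 of the 21893 genes on the array. For each, the probe with the highest mean over the 6 arrays was used. Transcript levels had been measured with single-colour Agilent arrays in 2 groups of 3 biological replicates. All cells were of the mouse ES cell line 46c, of strain 129/Ola, which carries a GFP reporter at Sox1, a gene switched on in early neural cells. ESC are undifferentiated 46c cells. NPC are 46c cells kept for 5 days in medium with the supplements NB27 and Neuro2, in which they turn into neural progenitors, and then sorted by FACS on GFP; the labels do not say which gate was kept. Both groups come from the same reporter line, so the replicates do not sample other lines. A value is a log2 signal after quantile normalisation, on a scale from 1.03 to 16.18 with a median of 5.32 on every array. A change is NPC minus ESC on this scale, so a change of 1 is a 2-fold difference.

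Microtubules are hollow polymers of alpha and beta tubulin dimers, and gamma tubulin nucleates them. Mammals have several alpha and several beta tubulin genes with near-identical proteins, and neurons use a particular mixture of these isotypes while they grow axons and dendrites. Stathmins bind free tubulin dimers. The collapsin response mediator proteins (CRMPs, encoded by Crmp1 and the Dpysl genes) carry guidance signals to the cytoskeleton. The doublecortin family and the structural microtubule-associated proteins (MAPs) bind and stabilise the polymer. Neurofilaments are the intermediate filaments of neurons, which set the calibre of axons. Dividing progenitors already build microtubules for their spindles and long processes, so much of the set is also used outside neurons.

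Of the 43 genes, 16 rose in NPC and 4 fell, by limma with a Benjamini-Hochberg adjusted p under 0.05 over all 21893 genes. That is 46.5% of the set against 20.6% of all genes tested (11.1% higher and 9.54% lower). Because the set was chosen with earlier results of these data known, such shares describe it and are no test of it. The median change of the set was 0.73, and that of all genes was 0.01. In 26 of the 43 the 3 arrays of one group all lay above the 3 of the other, 22 of them with NPC above, against 37.0% and 19.6% of all genes. The changes ran from a fall of Nefh, the heavy neurofilament subunit, by 3.94 on the log2 scale to a rise of Dcx, doublecortin, by 6.24. With the replicate number of the titles as a block, 22 rose and 4 fell, against 35.7% of all genes called. Of the 18 tubulin genes, 5 rose and 3 fell (3 rose without any 1 array other than NPC replicate 3), and of the 25 other genes, 11 rose and 1 fell. In the fits that left out 1 array, the set's count of rises ran from 11 (without ESC replicate 1 and without NPC replicate 1) to 17 (without NPC replicate 3).

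**Figure D1:**
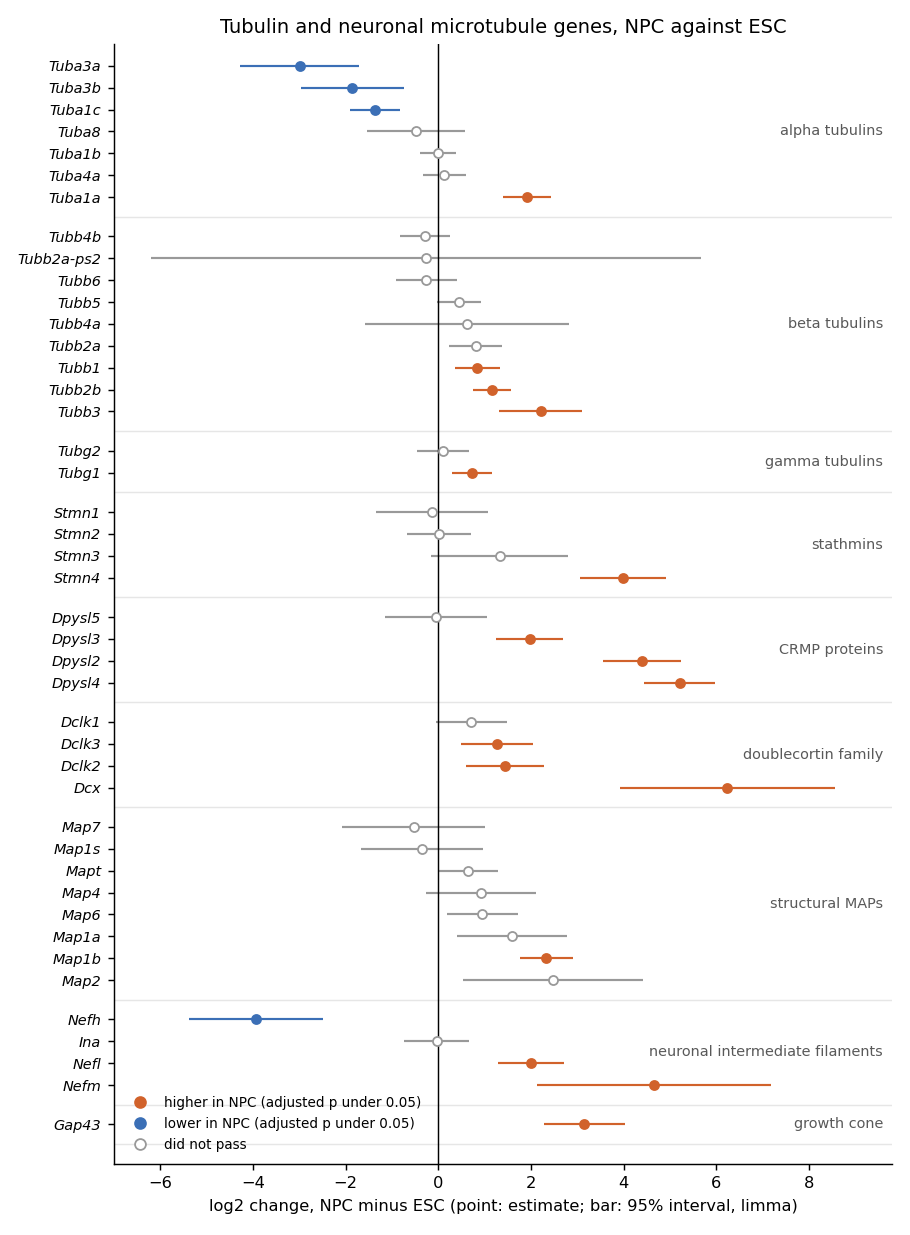
Log2 change of each of the 43 genes, NPC minus ESC, with its 95% interval from limma, grouped by role. Filled points passed the test (16 higher, 4 lower in NPC) and open points did not; the interval of Tubb2a-ps2 runs from -6.19 to 5.68.

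The groups carried the markers of their labels. These lists were chosen with earlier results of these data known, so they are no independent check of the labels. Counts in this paragraph are to be read against the 20.6% of all genes that passed (35.7% with the block). All 8 ES cell markers fell, and their summed signal went from 16.88 to 16.92 in ESC to 9.61 to 10.11 in NPC (log2 of the sum). Of the 8 neural progenitor markers 6 rose, and Sox1, the reporter gene of the sort, is one of them and no finding. Most markers of neurons moved the same way: 8 of 12 rose and 0 fell. Gad1 (-1.07) and Neurod1 (-0.76) were lower in NPC without passing. The summed signal was 11.80 to 13.05 in ESC and 13.44 to 14.22 in NPC. Snap25, with the highest mean of the 12 in both groups, overlapped and did not pass (limma adjusted p = 0.361). The lowest group mean of the 12 was that of Nhlh2 in ESC, at 1.5, near the scale's minimum of 1.03. With values under 6 set to 6, 4 of the 12 rose, and with 1 array left out 4 (without NPC replicate 1) to 7 did. Of 7 glial markers 3 rose and 0 fell, with sums of 9.18 to 9.996 and 9.89 to 10.83. Of 5 mesoderm markers 0 rose and 2 fell, and of 6 fibroblast markers 2 rose and 1 fell. Of 6 endoderm markers 2 rose and 0 fell, with sums of 7.32 to 8.15 in ESC and 10.53 to 11.14 in NPC. Their median change was -0.12, 3 of the 6 stayed under 6 on every array, and a summed signal follows its brightest genes. With the block, 7 progenitor, 9 neuron and 3 fibroblast markers rose, and 1 glial and 1 endoderm marker fell. The part of neuron-like or other cells in the changes below was not tested, and in such bulk samples more cells of a type and more RNA per cell cannot be told apart.

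The promoters of Tuba1a, Tuba1b, Tuba1c and Tubb3 are shown because the first of these 4 tubulin genes rose, the next was at the top of the scale in both groups, the next fell and Tubb3 rose. The first 3 are the alpha tubulin genes that follow one another on chromosome 15. Each sequence, from RefSeq on GRCm38.p6, runs 5′ to 3′ along the gene from 250 bases before the annotated start to 50 after it. Capitals mark a GC box (GGGCGG) or a CCAAT box (CCAAT), searched on both strands.
Tuba1a, chr15:98953452-98953751, minus strand: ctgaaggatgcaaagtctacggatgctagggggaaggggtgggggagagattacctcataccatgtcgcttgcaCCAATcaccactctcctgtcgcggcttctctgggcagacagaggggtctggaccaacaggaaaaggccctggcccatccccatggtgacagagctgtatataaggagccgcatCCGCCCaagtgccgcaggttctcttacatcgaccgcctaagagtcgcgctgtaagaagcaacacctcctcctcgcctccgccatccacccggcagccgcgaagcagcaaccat
Tuba1b, chr15:98934341-98934640, minus strand: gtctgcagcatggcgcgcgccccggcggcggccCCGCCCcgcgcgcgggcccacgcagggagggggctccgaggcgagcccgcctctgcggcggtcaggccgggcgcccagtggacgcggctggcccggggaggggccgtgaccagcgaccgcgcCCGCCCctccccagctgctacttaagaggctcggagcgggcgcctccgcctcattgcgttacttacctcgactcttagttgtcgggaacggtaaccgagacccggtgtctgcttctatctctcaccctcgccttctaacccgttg
Tuba1c, chr15:99029641-99029940, plus strand: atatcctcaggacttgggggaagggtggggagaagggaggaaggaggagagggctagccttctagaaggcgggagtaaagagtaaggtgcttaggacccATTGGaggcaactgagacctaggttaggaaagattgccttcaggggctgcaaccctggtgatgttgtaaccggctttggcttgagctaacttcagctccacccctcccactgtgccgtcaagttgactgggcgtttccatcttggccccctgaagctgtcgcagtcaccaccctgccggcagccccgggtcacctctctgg
Tubb3, chr8:123411303-123411602, plus strand: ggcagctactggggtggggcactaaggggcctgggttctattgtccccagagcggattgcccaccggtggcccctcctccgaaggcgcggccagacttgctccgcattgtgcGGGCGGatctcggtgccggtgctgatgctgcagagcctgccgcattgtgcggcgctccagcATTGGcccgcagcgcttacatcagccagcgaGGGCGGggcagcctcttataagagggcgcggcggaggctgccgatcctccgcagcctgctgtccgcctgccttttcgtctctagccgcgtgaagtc
The Tuba1a window held 1 GC box and 1 CCAAT box, that of Tuba1b 2 GC boxes and 0 CCAAT boxes, that of Tuba1c 0 and 1, and that of Tubb3 2 and 1. CpG dinucleotides numbered 16 in Tuba1a, 39 in Tuba1b, 7 in Tuba1c and 26 in Tubb3. Of all 32851 promoters in the table, 35.7% held the GC box and 37.4% the CCAAT box. Among the 29 promoters listed for 26 of the 43 genes, 17 held the GC box and 14 the CCAAT box. These matches describe letters and name no bound factor.

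Among the alpha tubulins, the isotypes changed in opposite directions. Tuba1a, the main alpha tubulin of growing neurons, rose, while Tuba1c, a widely expressed isotype, and Tuba3a and Tuba3b, known for expression in the testis, fell. On the ESC arrays (replicates 1, 2 and 3) Tuba1a read 13.79, 14.08 and 13.52, and on the NPC arrays 15.71, 15.81 and 15.61. All NPC arrays lay above all ESC arrays, a change of 1.91 ± 0.21 (SE, n = 3 per group, limma adjusted p = 0.0021), or 3.76-fold. Its other probe rose too, by 1.41 ± 0.21. The neighbouring Tuba1c read 14.71, 15.09 and 14.65 in ESC and 13.34, 13.70 and 13.30 in NPC. It fell by 1.37 on the log2 scale (SE 0.22, adjusted p = 0.00838), with no overlap, and its other probe fell by 1.43. In each of the 3 same-numbered pairs Tuba1a was higher in NPC by 1.72 to 2.09 and Tuba1c lower, with differences of -1.39 to -1.34.

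Tuba1b, which lies next to Tuba1a and supplies alpha tubulin in dividing cells, could not be ranked at its brighter probe. That probe read 16.14 to 16.18 on the 6 arrays and was the brightest or second brightest of all 55681 probes on each of them, so a change of 0.00 ± 0.16 is what the top of a quantile-normalised scale allows. Its dimmer probe, at 14.92 to 15.64, changed by 0.09 ± 0.27 and did not pass. Tuba3a read 9.82, 10.90 and 9.24 in ESC and 7.33, 7.35 and 6.29 in NPC, and Tuba3b read 8.13, 9.24 and 7.60 against 6.63, 6.63 and 6.12. Neither gene's groups overlapped. Tuba3a fell by 2.99 on the log2 scale (SE 0.52, adjusted p = 0.0106) and by 3.99 at its other probe. Tuba3b fell by 1.86 (SE 0.45, adjusted p = 0.0357), a call lost without ESC replicate 1, without any 1 NPC array (adjusted p of 0.088 to 0.1 in these 4 fits) and when low values were raised to a floor of 6 (0.0996). Tuba3a and Tuba3b are near copies, and whether their probes tell them apart was not analysed here, so their values may not be separate. Tuba4a, at 14.45 to 14.87 on the 6 arrays, changed by 0.13 (95% interval -0.34 to 0.60). Tuba8 was dim throughout, at 1.48 to 3.18, and did not pass.

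Of the 9 beta tubulin genes, 3 rose and 0 fell (33.3%, against 20.6% of all genes). Tubb3, the class III isotype used as a marker of neurons, read 11.16, 11.05 and 10.03 in ESC and 12.90, 13.27 and 12.69 in NPC. Its groups did not overlap, and it rose by 2.21 ± 0.36 (adjusted p = 0.00888), or 4.62-fold. All ESC values of Tubb3 lay far above the array median of 5.32. Tubb2b, a beta tubulin of the developing brain in which mutations disturb neuronal migration, was tightly replicated, at 14.05, 14.17 and 14.05 in ESC and 15.23, 15.35 and 15.18 in NPC. It rose by 1.16 ± 0.17 (adjusted p = 0.0054), and its other, dimmer probe rose by 1.94 ± 0.22. Its neighbour Tubb2a, a near copy that its probe may not tell apart, read 11.51 to 11.74 in ESC and 12.16 to 12.81 in NPC without overlap. That change of 0.81 ± 0.23 did not pass without covariates and passed with the replicate block or an intensity trend (adjusted p = 0.0615, 0.0274 with the block and 0.0462 with the trend).

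The beta tubulin genes of general use stayed within 1 log2 unit of their ESC means. Tubb5, the main beta tubulin of dividing cells, read 14.67 to 15.04 in ESC and 15.15 to 15.40 in NPC, with no overlap but a change of only 0.45 (95% interval -0.02 to 0.92, adjusted p = 0.178). Tubb4b differed by -0.29 (-0.84 to 0.26), and Tubb6 by -0.25 (-0.90 to 0.40), and their groups overlapped. Tubb1, known from platelets, was dim, at 6.54 to 6.93 in ESC and 7.47 to 7.76 in NPC. It rose by 0.84 ± 0.20 (adjusted p = 0.0321), but the call was lost in 5 of 6 fits that left out an array, all but that without NPC replicate 3 (adjusted p up to 0.104, without NPC replicate 1), and with an intensity trend (adjusted p = 0.0568). Tubb4a, a beta tubulin of mature neurons and oligodendrocytes, followed the replicate number more than the group: it read 12.36, 10.82 and 13.48 in ESC and 12.41, 11.83 and 14.28 in NPC. The pseudogene Tubb2a-ps2 did so more widely, at 8.999, 5.82 and 12.41 and then 6.97, 6.25 and 13.23. Replicate 3 was highest and replicate 2 lowest in both groups for both genes, and neither passed with or without the block.

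The gamma tubulins Tubg1 and Tubg2 follow each other on chromosome 11. Tubg1, the copy that nucleates microtubules in most cells, read 11.18, 11.20 and 11.01 in ESC and 11.95, 11.90 and 11.72 in NPC. It rose by 0.73 ± 0.18 (adjusted p = 0.035) with no overlap, a call lost in 5 of 6 fits that left out an array, all but that without NPC replicate 3 (adjusted p up to 0.121, without ESC replicate 1). Tubg2, at 7.5 to 8.18 and 7.93 to 8.05, changed by 0.11 (95% interval -0.46 to 0.67). The 2 changes were not tested against each other.

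**Figure D2:**
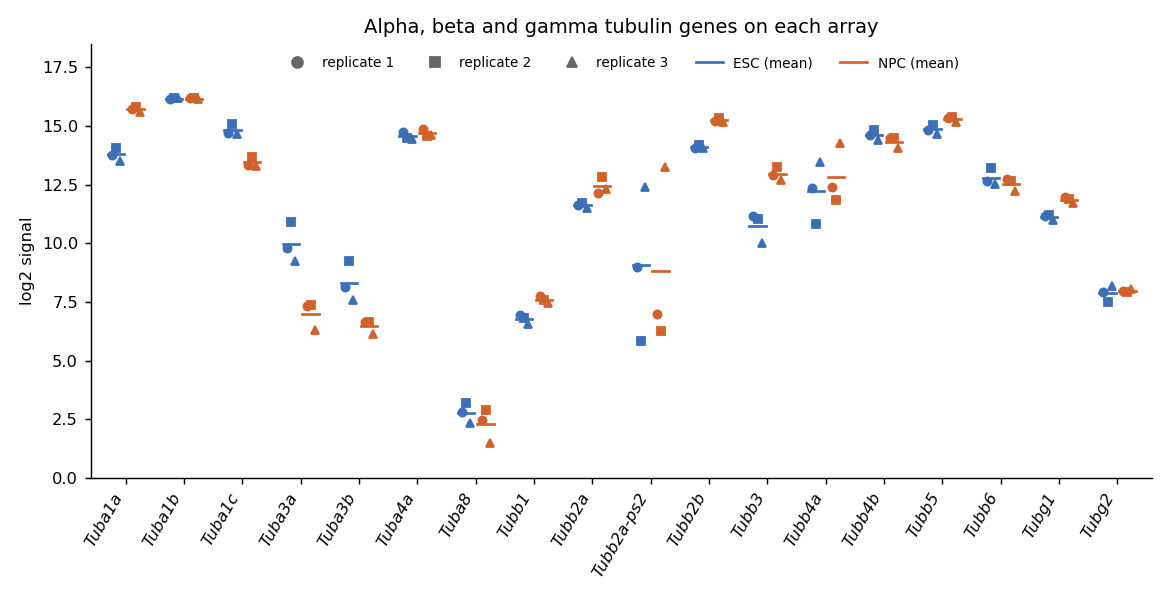
Log2 signal of the 18 tubulin genes on the 6 arrays, ESC in blue and NPC in orange, with a marker for each replicate number and a line at each group mean. Tuba1a, Tubb2b and Tubb3 lie higher in all 3 NPC arrays and Tuba1c, Tuba3a and Tuba3b lower, while Tubb4a and Tubb2a-ps2 spread by replicate number.

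Of the 4 stathmins, which bind free tubulin, 1 rose (25%, near the 20.6% of all genes that passed). Stmn4, a neural member, read 7.76, 7.21 and 7.33 in ESC and 10.70, 11.57 and 11.99 in NPC. Its groups were 2.94 apart, and it rose by 3.98 ± 0.38 (adjusted p = 0.00116), with 3.80 at its other probe. Stmn2, a protein of growing axons often taken as a neuronal marker, did not differ between the groups: it read 12.05, 12.51 and 11.93 in ESC and 11.97, 12.62 and 11.96 in NPC. The change was 0.02, with a 95% interval of -0.67 to 0.71. Its single probe was already bright in the ESC arrays, among the brightest 4004 of 55681 probes on every array, and whether it reads only Stmn2 was not checked here. Stmn1, the stathmin of dividing cells, changed by -0.14 (-1.35 to 1.08) and by 0.32 ± 0.22 at its other probe, with neither passing. Stmn3 read 9.21, 8.71 and 10.37 in ESC and 10.01, 10.56 and 11.70 in NPC. These groups overlapped, yet each NPC array lay above the ESC array of its number, by 0.80 to 1.85, and the change of 1.33 passed in the block fit alone (adjusted p = 0.204 without and 0.0202 with it).

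Of the 4 Dpysl genes, which encode CRMPs, 3 rose and 0 fell (75%, against 20.6% of all genes). Crmp1, a further CRMP gene outside the symbol rule, changed by 1.07 ± 0.47. Its groups overlapped, and it passed in the block fit alone (adjusted p = 0.192 without and 0.0195 with it). Dpysl4 (CRMP3) read 8.25, 8.70 and 8.19 in ESC and 13.66, 14.04 and 13.08 in NPC. It rose by 5.21 ± 0.31 (adjusted p = 0.000249), or 37.1-fold, and its other probe rose by 5.29 ± 0.32. Dpysl2 (CRMP2), which carries tubulin dimers to growing axon ends, read 9.45, 9.10 and 8.31 in ESC and 13.61, 13.32 and 13.13 in NPC. That is a rise of 4.40 ± 0.34 (adjusted p = 0.000587), or 21.1-fold, with the groups 3.68 apart. On chromosome 14 Dpysl2 and Stmn4 are separated by 1 protein-coding gene, Adra1a, and both rose. Dpysl3 (CRMP4) read 9.6, 9.78 and 10.42 in ESC and 11.67, 11.83 and 12.21 in NPC, a rise of 1.97 ± 0.29 (adjusted p = 0.00589) without overlap. Its 2 dimmer probes changed by 0.57 and 0.41 and did not pass. Dpysl5 (CRMP5), expressed in young postmitotic neurons, was bright in both groups, at 11.03 to 12.53 in ESC and 11.52 to 12.20 in NPC. It changed by -0.05 (95% interval -1.15 to 1.06), so a 2-fold difference either way lies inside its interval.

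Dcx, the microtubule-binding protein of migrating neurons, had the largest change of the 43 genes. It read 4.06, 5.02 and 1.57 in ESC and 9.35, 9.30 and 10.71 in NPC, a rise of 6.24 ± 0.94 (adjusted p = 0.00641). Every ESC value lay under the array median of 5.32, so its size rests on the bottom of the scale: with values under 6 set to 6 the rise is 3.79. Its 2 other probes, both at 4.04 or less on every array, did not pass. Dclk2, a doublecortin-like kinase, read 9.93, 10.41 and 9.6 in ESC and 11.39, 11.93 and 10.93 in NPC. It rose by 1.44 ± 0.34 (adjusted p = 0.0338), a call lost in 4 of 6 fits that left out an array (ESC replicates 1 and 3, NPC replicates 1 and 2; adjusted p up to 0.120), with values under 6 set to 6 (0.083) and with the mean of its probes (0.179). Dclk3, at 3.77 to 4.73 in ESC and 5.20 to 5.69 in NPC, rose by 1.28 ± 0.32 (adjusted p = 0.0379). All its values lay under 6, and its call was lost in 5 of 6 such fits, all but that without ESC replicate 2 (up to 0.142, without ESC replicate 1).

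Dclk1, a doublecortin-like kinase of radial glia and young neurons, depended on the probe. The probe of highest mean read 6.45, 7.23 and 6.25 in ESC and 7.16, 7.29 and 7.62 in NPC and did not pass (change 0.71 ± 0.31, adjusted p = 0.192). The next probe, annotated to the same transcript and only slightly dimmer on average, read 4.71, 4.55 and 4.31 in ESC and 9.29, 8.87 and 9.08 in NPC. It rose by 4.55 ± 0.21 (adjusted p = 0.000223 over 30626 probes, of which 17.6% passed). A further probe of another transcript rose by 1.78 ± 0.26, and the dimmest changed by 0.65 and did not pass. The mean of the 4 probes rose by 1.92 (adjusted p = 0.000825).

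Of the 8 structural MAPs, 1 rose and 0 fell without the block (12.5%, against 20.6% of all genes). With the block 5 rose, in a fit where 35.7% of all genes passed. Map1b, the earliest MAP of growing axons, read 10.36, 10.65 and 10.75 in ESC and 12.76, 12.76 and 13.24 in NPC. It rose by 2.33 ± 0.23 (adjusted p = 0.00132), or 5.04-fold. Its second probe, at 4.31 to 7.78, changed by 1.13 ± 0.87 without passing, and with the mean of both probes the call was lost (1.73, adjusted p = 0.0711). Map2, the MAP of dendrites, read 8.16, 5.85 and 8.08 in ESC and 9.47, 9.12 and 10.93 in NPC. All NPC arrays lay above all ESC arrays, but the spread within groups was wide and the change of 2.47 ± 0.79 passed in the block fit alone (adjusted p = 0.0839 without and 0.0174 with it).

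Map1a, Map4 and Map6 also passed with the block and not in the fit without covariates. Map1a, of mature dendrites and axons, read 7.13, 6.28 and 5.71 in ESC and 8.24, 8.42 and 7.25 in NPC (change 1.59 ± 0.48, adjusted p = 0.071 and 0.0122 with the block). Map6, which makes microtubules stable in the cold, read 10.83, 10.62 and 10.20 and then 11.63, 11.87 and 10.99 (change 0.95 ± 0.31, adjusted p = 0.0884 and 0.017 with the block). Map1a and Map6 passed without the block when NPC replicate 3 was left out (adjusted p = 0.0423 and 0.0354), and the second probe of Map6 rose by 1.32 ± 0.19 (adjusted p = 0.00709). Map4, the MAP of non-neuronal and dividing cells, read 10.97, 11.53 and 10.19 and then 12.10, 12.31 and 11.05, with overlapping groups but a difference of 0.78 to 1.12 in each same-numbered pair (change 0.92 ± 0.48, adjusted p = 0.267 and 0.0136 with the block). Map1s and Map7 changed by -0.35 (-1.66 to 0.96) and -0.53 (-2.09 to 1.02) and passed in neither fit.

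**Figure D3:**
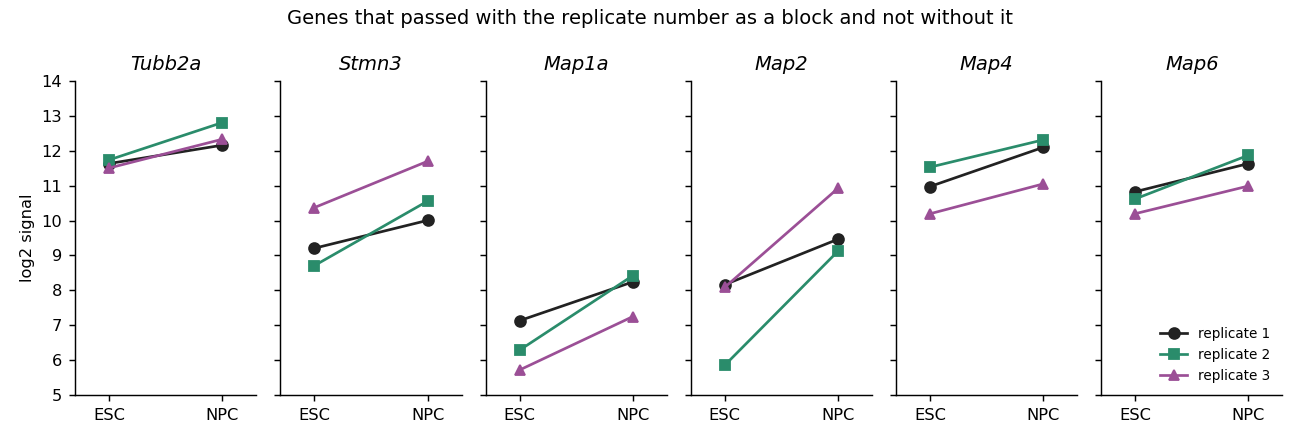
Log2 signal in ESC and NPC for the 6 genes that did not pass without covariates and passed with the replicate number as a block, with a line joining the arrays of each number. All 3 lines rise for each gene, by 0.53 to 1.07 for Tubb2a and by 1.3 to 3.27 for Map2, while the arrays of a group lie up to 2.31 apart.

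Mapt, which encodes tau, the MAP of axons, also depended on the probe. The probe of highest mean read 9.22, 9.5 and 9.06 in ESC and 9.5, 10.26 and 9.94 in NPC, so the groups met at 9.5. Its change of 0.64 ± 0.26 did not pass (adjusted p = 0.164, 0.06 with the block). All 3 probes carry the same transcript in the annotation. The dimmest, at 5.996, 6.26 and 5.96 in ESC and 7.86, 8.54 and 7.90 in NPC, rose by 2.03 ± 0.26 (adjusted p = 0.00443), and the mean of the 3 rose by 1.07 (adjusted p = 0.03). Over the set, 21 genes had more than 1 probe. In 14 of them all probes gave the same call, in 7 they did not, and 0 had probes called in opposite directions. Tuba1a, Tubb2b, Stmn4 and Dpysl4 rose at every probe, and Tuba1c, Tuba3a and Nefh fell at every probe. Dclk1, Map6 and Mapt passed only at a probe other than the brightest.

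**Figure D4:**
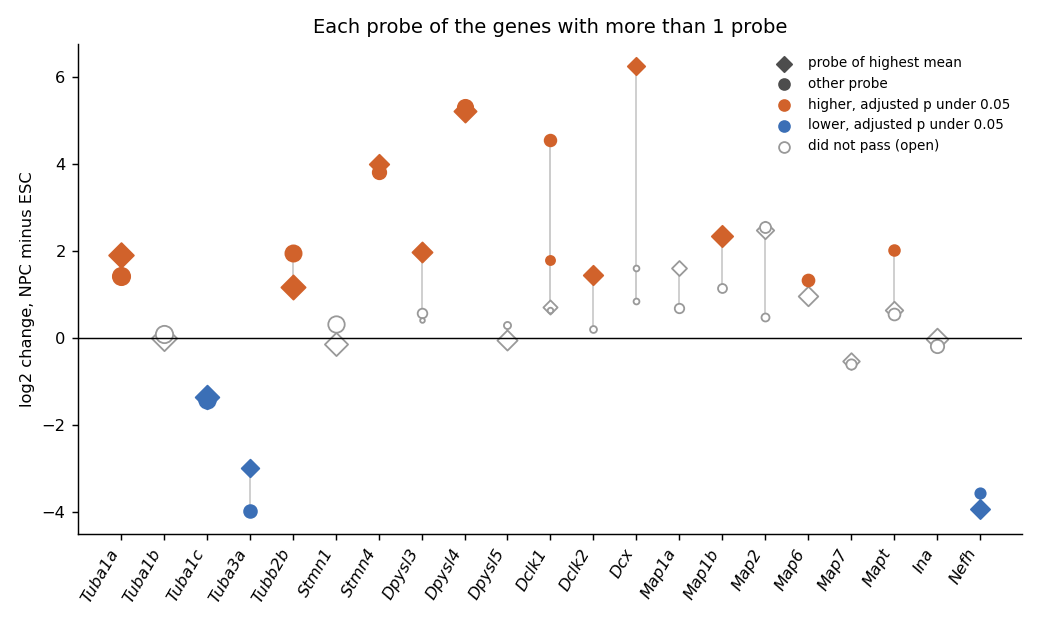
Log2 change, NPC minus ESC, of each probe of the 21 genes with more than 1 probe, joined by a line per gene. Diamonds are the probe of highest mean, circles the others and larger symbols brighter probes; Dcx (0.84 to 6.24) and Dclk1 (0.65 to 4.55) show the widest gaps between probes of a gene.

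The neurofilament subunits moved in opposite directions. Nefl, the light subunit on which the others assemble, read 12.11, 11.72 and 11.25 in ESC and 13.61, 13.99 and 13.48 in NPC, a rise of 2.0 ± 0.29 (adjusted p = 0.00532). Nefm, the middle subunit and its neighbour on chromosome 14, read 5.40, 3.56 and 6.10 in ESC and 9.05, 8.38 and 11.58 in NPC. Neither gene's groups overlapped. The rise of Nefm by 4.65 ± 1.03 (adjusted p = 0.0256) was 3.64 with values under 6 set to 6 and then did not pass (adjusted p = 0.0914). Its call was also lost without ESC replicate 1, ESC replicate 2 or NPC replicate 1 (adjusted p up to 0.0799). Nefh, the heavy subunit, which in neurons appears late in maturation, was high in ESC instead. It read 11.34, 12.002 and 10.38 in ESC and 7.58, 7.98 and 6.34 in NPC, a fall by 3.94 on the log2 scale (SE 0.59, adjusted p = 0.00604), and its other probe fell by 3.57. Each of the 3 same-numbered pairs differed by -4.03 to -3.76. Ina, which encodes alpha-internexin, the neuronal filament protein that precedes the neurofilaments in development, was bright in both groups, at 12.76 to 13.60 and 12.96 to 13.45. Its change was -0.04 (95% interval -0.74 to 0.66).

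Gap43, a growth cone protein that organises the membrane of advancing axons, read 9.90, 10.09 and 9.04 in ESC and 12.45, 13.13 and 12.91 in NPC. The groups were 2.35 apart, and it rose by 3.15 ± 0.35 (adjusted p = 0.00213), or 8.89-fold. With Stmn4, Dpysl2, Dpysl4 and Dcx it was among the genes whose call held with each array left out, with the block and with values under 6 set to 6.

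**Figure D5:**
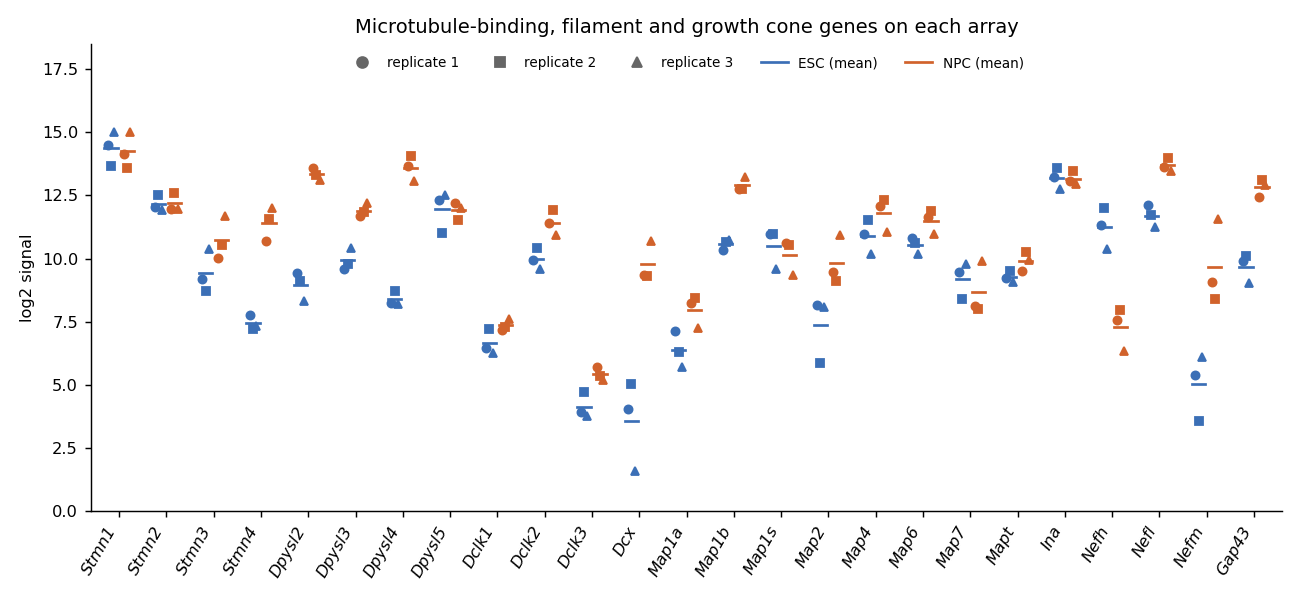
Log2 signal of the 25 genes other than tubulins on the 6 arrays, ESC in blue and NPC in orange, with a marker for each replicate number and a line at each group mean. Stmn4, Dpysl2, Dpysl4, Dcx and Gap43 lie higher in all 3 NPC arrays and Nefh lower, while Stmn2, Dpysl5 and Ina are bright and overlap.

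The genes that nucleate, fold, modify or cut microtubules are given by list, to be read against the 20.6% of all genes that passed and the 35.7% that passed with the block. Of 15 genes of the gamma-tubulin ring complex and of centrosomal nucleation, 2 rose and 0 fell (the block fit gave 8 and 0), or 13.3% of the list, and the median change was 0.66. These were Akap9, a centrosome and Golgi scaffold, by 1.6 ± 0.24, and Mzt2, a ring complex subunit, by 0.89 ± 0.19. The call of Mzt2 was lost in 6 alternative fits, among them those without any of 4 arrays (ESC replicates 1 and 3, NPC replicates 1 and 2) and that at its second probe. Of 16 chaperonin and tubulin cofactor genes, which fold tubulin, 0 passed in limma, 0 had an unadjusted p under 0.05, and with the block 1 rose and 1 fell. The brightest members, Cct5 and Cct7, changed by 0.00 ± 0.24 and -0.37 ± 0.16. Of 19 plus-end and minus-end proteins 5 rose and 0 fell (10 and 1 with the block), a share of 26.3% that is near that of all genes. The largest rises were those of the plus-end linker Clip1 (2.74 ± 0.27), of Clip3 (2.37 ± 0.61) and of the stabiliser Clasp1 (1.93 ± 0.43). With values under 6 set to 6, 1 of the 19 passed (Clip1), and the calls of Clip3 and Clasp1 were lost in 5 and 3 of 6 fits that left out an array.

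Of 26 tubulin modifying enzymes on the array, 5 rose and 3 fell (9 and 5 with the block), or 30.8% against 20.6% of all genes (35.7% with the block). Without any 1 of ESC replicates 1 and 3 and NPC replicates 1 and 2, 3 rose. Atat1, the acetyltransferase of alpha tubulin in the microtubule lumen, read 8.37, 9.17 and 8.53 in ESC and 10.98, 11.46 and 10.76 in NPC, a rise of 2.38 ± 0.31 (adjusted p = 0.00365), although its second probe did not pass (1.38). Agbl3, a carboxypeptidase that trims tubulin tails, rose by 3.67 ± 0.21, with -0.000404 at its second probe. Ttll2 rose by 3.10 ± 0.19 and Ttll13 fell by 2.22 on the log2 scale, both of the tubulin tyrosine ligase-like family, but with values under 6 set to 6 neither passed. The call of Ttll13 was lost in 2 alternative fits, that with the floor of 6 among them. Of 8 severing enzymes 2 rose and 0 fell, or 25% of the list (3 and 1 with the block). Fign rose by 2.98 ± 0.25 and the katanin-like Katnal1 by 1.63 ± 0.25, the latter with 1.38 and no call at its second probe. Of 24 other microtubule-binding proteins 4 rose and 2 fell (9 and 3 with the block), a share of 25% that is near the 20.6% of all genes. Eml1, which in mice is needed for spindle orientation in cortical progenitors, read 6.76, 7.13 and 6.25 in ESC and 12.39, 11.67 and 11.68 in NPC, a rise of 5.20 ± 0.33 (adjusted p = 0.000294), with 2.10 and no call at its second probe. Jakmip2 rose by 2.48 ± 0.45 (adjusted p = 0.0591 without NPC replicate 1), and Jakmip1 fell by 2.74 on the log2 scale, with 0.10 at its second probe.

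The intermediate filament genes outside the neurofilaments numbered 8, of which 2 rose and 3 fell (62.5%, against 20.6% of all genes). Vim, vimentin, read 12.35, 12.10 and 12.33 in ESC and 14.77, 14.58 and 14.74 in NPC, a rise of 2.43 ± 0.18 (adjusted p = 0.00049). Nes, the nestin of neural progenitors, rose by 3.78 ± 0.66, a call lost without NPC replicate 1 (adjusted p = 0.0534). Lmna, the A-type lamin, fell by 2.23 on the log2 scale (SE 0.23, adjusted p = 0.0015).

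The arrays of a number shared part of their spread, in this set as over all genes. In 23 of the 43 genes (53.5%) the same replicate number was highest and the same lowest in both groups, near the 44.3% of all genes. Stmn1 is an example without a call, at 14.49, 13.66 and 14.995 in ESC and 14.15, 13.59 and 15.004 in NPC. The labels do not say what a replicate number stands for.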

How the data were processed

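Single-colour Agilent arrays of 3 ESC and 3 NPC samples were analysed. The authors' background correction is not stated here. The submitters' processing notes name limma, and the sorted deposited log2 values were identical on all arrays, as quantile normalisation leaves them. The log base was inferred from the range. Of 55681 probes, 30626 carried 1 gene symbol and 25055 were not used. The probe of highest mean stood for each of 21893 genes, and limma 3.58.1 (R 4.3.3) was fitted without covariates, with Benjamini-Hochberg adjusted p under 0.05 as the threshold. Intervals are limma's 95% intervals, and the 3 arrays per group limit the precision. Tables were made with pandas 2.3.3 in Python 3.11.15.

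Replicate numbers come from the titles. Deviations of same-numbered ESC and NPC arrays from their group means correlated at 0.189, 0.721 and 0.768 over genes for numbers 1, 2 and 3. Each exceeds 0.1, the limit set for treating samples as paired, so the block value is printed where it changes a call; NPC replicate 1 correlated more with ESC replicate 2 (0.402). Alternatives were the block, a floor of 6, leaving out dim genes, the mean of all probes, the second brightest probe, an intensity trend, and each array left out. In data simulated from the replicate deviations of these arrays, the fit without the block recovered a log2 change of 1 in 0 of 67 genes, of 2 in 14.9% of 67 and of 4 in 71.2% of 66. The block fit recovered 0 of 67, 35.8% and 68.2%. In the simulation 21693 of 21893 genes were left unchanged, whereas 20.6% of all genes passed in the real data. The Benjamini-Hochberg cutoff was therefore stricter in the simulation. Noise was also added to replicate deviations that already held part of it, so the simulated spread within a group was on average wider than the real one. The simulated shares thus do not give the power of the real fit.

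All members are described. Of the companion lists, genes were named by largest change among those that passed and by brightness, and Crmp1 as a further CRMP gene. Members and lists were chosen with earlier results of these data known. Probe sequences were not used, so whether probes tell near copies apart was not checked. Some genes of the companion and marker lists are not reported here.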

Additional observations from a re-analysis of the deposited data

How the results depend on the processing

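With the replicate number as a block, 4147 of all genes rose and 3660 fell (2423 and 2089 without it), 22 and 4 of the 43 genes and 6 and 3 of the tubulins, and the block took the call from none of the 43. With values under 6 set to 6, 1527 of all genes rose and 1297 fell. With genes of a mean under 6 left out, only 12566 genes were tested, of which 1852 rose and 1380 fell. The median change of the set was 0.82 with the mean of all probes and 0.57 at the second brightest probe, where 488 of 6807 genes rose and 375 fell, and 6 of the 21 members and 2 tubulins rose. With each array left out, all genes higher ran from 1475 to 2644 and lower from 1289 to 1923, members higher from 11 to 17 and lower from 3 to 4, tubulins higher from 3 to 5 and lower from 2 to 3, and the median from 0.73 to 0.86. Signs turned for genes that did not pass: Stmn1 (0.0946) and Dpysl5 (0.12) with the mean of all probes, and Stmn1 (0.32) and Dpysl5 (0.28) at the second probe. At the second probe Agbl3 (-0.000404) and Jakmip1 (0.10), which had passed, also turned. With arrays left out, Tubb2a-ps2 ran from -2.46 to 1.41, Tubb4a from -0.10 to 1.25, Tubg2 from -0.0807 to 0.26, Stmn1 from -0.51 to 0.19, Stmn2 from -0.19 to 0.20, Dpysl5 from -0.51 to 0.24, Map1s from -0.81 to 0.0606, Ina from -0.26 to 0.16 and Cct5 from -0.12 to 0.16. The cause was not tested. Of the 20 members that passed, 14 passed with each array left out, and 13 in every alternative except the second probe: Tuba1a, Tuba1c, Tuba3a, Tubb2b, Tubb3, Stmn4, Dpysl2, Dpysl3, Dpysl4, Dcx, Nefh, Nefl and Gap43. Dim genes such as Tuba8 lie near the bottom of the scale, Dclk3 lies under 6 on every array and Tuba1b lies at the top, which limits the changes that can be measured there.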
